A study of Drosophila melanogaster with 8 samples.

Results

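The transcripts described are those of the subunits of RNA polymerases I, II and III, the 3 nuclear RNA polymerases, in S2 cells of Drosophila melanogaster. Members were all genes with a symbol beginning Polr1, Polr2 or Polr3 in the platform annotation whose probe set names 1 gene, which gave 21 genes of the 11009 tested: 6 for polymerase I, 7 for polymerase II and 8 for polymerase III, each with 1 probe set. Another 9 subunits that a RefSeq gene table lists are not analysed here, among them Polr2A and Polr2B, the catalytic subunits of polymerase II.

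S2 cells are a macrophage-like line derived from embryos. There were 4 groups of 2 samples. Cells were given double-stranded RNA (dsRNA), either a scrambled sequence or one that targets the DmSTING transcript by RNA interference, and 72 h later received the lipid reagent Cellfectin, either carrying c-di-GMP, a cyclic dinucleotide that bacteria use as a signal, or alone (mock). RNA was extracted a further 24 h later. The design lets the c-di-GMP response be compared with and without knockdown of DmSTING, the STING protein of flies, which in mammals senses cyclic dinucleotides. The groups are called scrambled mock, scrambled c-di-GMP, DmSTING RNAi mock and DmSTING RNAi c-di-GMP, from the sample titles. The genotype field differs from the title in 4 samples, and the groups follow the titles. The Sting values given below separate by title.

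Polymerase I transcribes the large ribosomal RNA precursor in the nucleolus. Polymerase II transcribes the protein-coding genes and many small nuclear RNAs, and polymerase III transcribes transfer RNAs, the 5S ribosomal RNA and other short RNAs. The enzymes are built on one plan, with a pair of large catalytic subunits, an assembly platform, a stalk and small core subunits, and in yeast and human cells several subunits belong to more than 1 enzyme. Polr1C is shared by polymerases I and III, and Polr2E, Polr2H, Polr2K and Polr2L are shared by all 3, so a symbol beginning Polr2 does not make a subunit particular to polymerase II.

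Values are on a log scale, taken as log2, and centred, gene by gene, on the median of the 8 samples. A difference between samples can be read from them, and an expression level cannot, so neither the levels of 2 subunits nor the defining markers of the cell type could be compared with a background. Where all c-di-GMP samples of a gene lie above all mock samples, the zero line falls midway in the gap by construction. The SD over all genes of the difference between the replicates of a group was between 0.119 and 0.233, and between 0.0465 and 0.113 over the 21 members. Sting, the targeted transcript, was in the scrambled arm at 0.81 and 0.83 (mock) and 0.57 and 0.46 (c-di-GMP), and in the DmSTING RNAi arm at -0.48 and -0.46 (mock) and -0.84 and -0.75 (c-di-GMP), so all 4 samples given DmSTING dsRNA lay below the other 4. Of 9 measured plasmatocyte markers, the macrophage-like blood cells that S2 cells resemble, 4 fell with c-di-GMP on average over both dsRNA arms (NimC1, Col4a1, vkg and crq, with log2 changes from -0.34 to -0.60), where 13.3% of all genes fell. The other 5 lay between -0.10 and 0.06. In the scrambled arm 3 of 9 fell, among them Col4a1 by 0.61 and vkg by 0.74, where 7.93% of all genes fell. In the DmSTING RNAi arm 0 of 9 fell by limma (3 at an unadjusted p under 0.05), where 4.17% of all genes fell. Col4a1 was there at -0.09 and vkg at -0.16. Limma's test of the difference between the c-di-GMP responses of the arms called 0 of 11009 genes. NimC1 was at -0.64 in the scrambled arm and -0.56 in the DmSTING RNAi arm, and crq at -0.37 and -0.32. The average calls of Col4a1, vkg and crq were each lost without at least 1 library (adjusted p up to 0.0719). Their part in the polymerase results was not tested.

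All 6 measured polymerase I subunits rose with c-di-GMP, and the polymerase II and III sets moved only in part. On average over both dsRNA arms the median log2 change was 0.50 for polymerase I, 0.06 for polymerase II and 0.09 for polymerase III, against -0.03 over all genes. By limma, with Benjamini-Hochberg adjustment over all 11009 genes and an adjusted p under 0.05 as the threshold, 6 of 6, 3 of 7 and 2 of 8 subunits rose and none fell, where 7.65% of all genes rose and 13.3% fell. In a bulk culture, more RNA per cell and more cells that express a gene cannot be told apart.

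**Figure D1:**
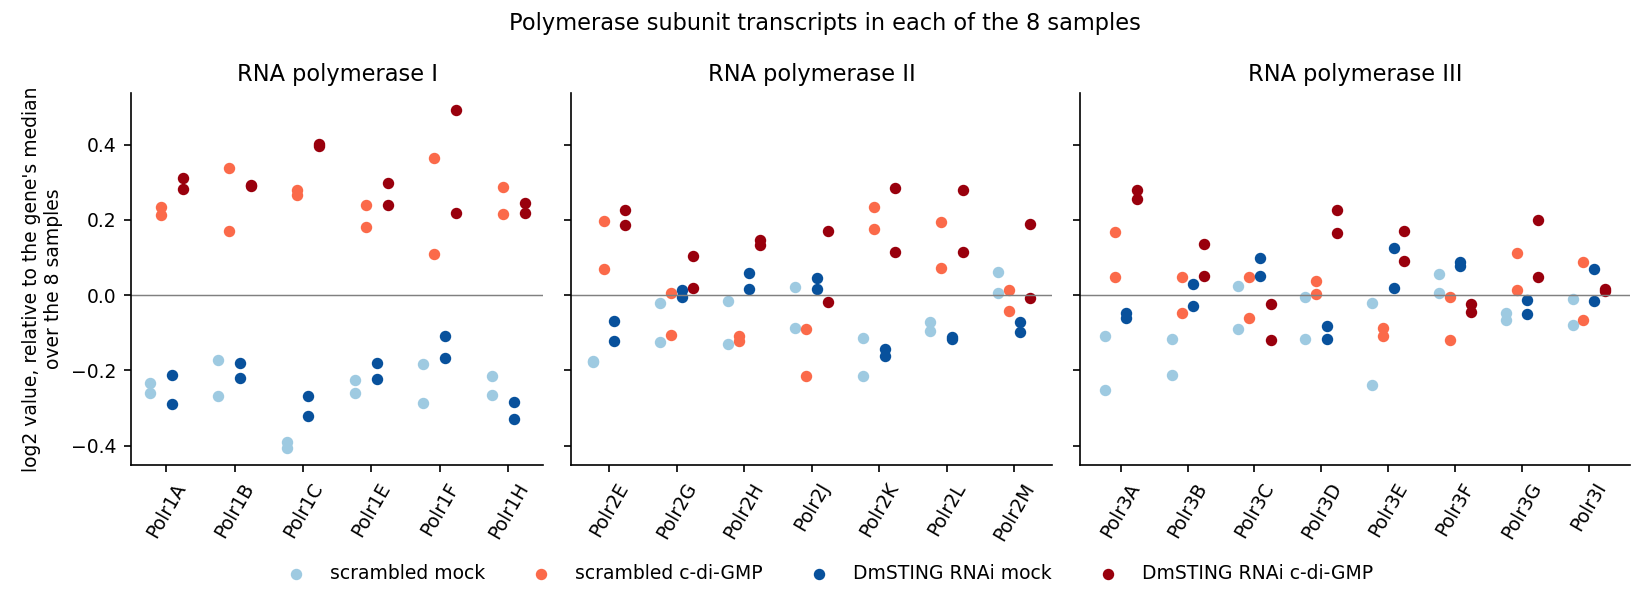
Log2 value of each of the 21 subunits, relative to the gene's median over the 8 samples, with 1 point per sample, coloured by group. In the polymerase I panel the 4 c-di-GMP samples (red) lie above the 4 mock samples (blue) for all 6 genes. In each of the other panels they do so for 3 genes, where 9.71% of all genes do. In the polymerase III panel the colours of Polr3F separate downward, where 15.4% of all genes do.

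Polr1A and Polr1B, the largest and second largest subunits, form the catalytic centre of polymerase I. Polr1A was at -0.23 and -0.26, then 0.23 and 0.21 in the scrambled arm, and at -0.29 and -0.21, then 0.28 and 0.31 in the DmSTING RNAi arm, with the mock samples given before the c-di-GMP samples here and below. Its 4 c-di-GMP samples lay above its 4 mock samples with a gap of 0.42, and it rose by 0.51 on average over both arms (limma, 2 samples per group, SE 0.05, adjusted p = 0.000747), which is 1.42-fold if the base of the logarithm is 2. Polr1B was at -0.27 and -0.17, then 0.17 and 0.34 in the scrambled arm, and at -0.22 and -0.18, then 0.29 and 0.29 in the DmSTING RNAi arm. The groups did not overlap here either, and Polr1B rose by 0.48 (SE 0.06, adjusted p = 0.00167).

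Polr1C, which sits in the assembly platform of polymerases I and III, had the largest change of the 21 subunits. It was at -0.39 and -0.41, then 0.28 and 0.27 in the scrambled arm, and at -0.32 and -0.27, then 0.40 and 0.40 in the DmSTING RNAi arm. The replicates of a group differed by at most 0.05, and the gap between the c-di-GMP and the mock samples was 0.53. It rose by 0.68 (SE 0.04, adjusted p = 0.000426), or 1.60-fold with base 2, and 0.518% of all genes had a higher change.

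The remaining polymerase I subunits sit at the periphery of the enzyme. Polr1H, a small zinc-binding subunit that in yeast takes part in RNA cleavage, was at -0.22 and -0.27, then 0.29 and 0.22 in the scrambled arm, and at -0.33 and -0.28, then 0.22 and 0.25 in the DmSTING RNAi arm. It rose by 0.52 (SE 0.05, adjusted p = 0.000757), with no overlap between treated and mock samples. Polr1E, the homologue of the yeast subunit A49 that helps initiation and elongation, was at -0.23 and -0.26, then 0.18 and 0.24 in the scrambled arm, and at -0.18 and -0.22, then 0.24 and 0.30 in the DmSTING RNAi arm. It rose by 0.46 (SE 0.05, adjusted p = 0.00106).

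Polr1F, a subunit of the polymerase I stalk, which in yeast contacts the initiation factor Rrn3, was the least even of the 6. It was at -0.29 and -0.18, then 0.11 and 0.36 in the scrambled arm, and at -0.17 and -0.11, then 0.22 and 0.49 in the DmSTING RNAi arm. Its c-di-GMP replicates differed by up to 0.27, the widest replicate gap among the 21 subunits, yet the treated samples still lay above all mock samples by 0.22. It rose by 0.48 (SE 0.08, adjusted p = 0.00761). Apart from Polr1C, the polymerase I subunits lay between 0.46 and 0.52, so close that the steps between neighbours in that order, at most 0.03, were smaller than their standard errors.

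**Figure D2:**
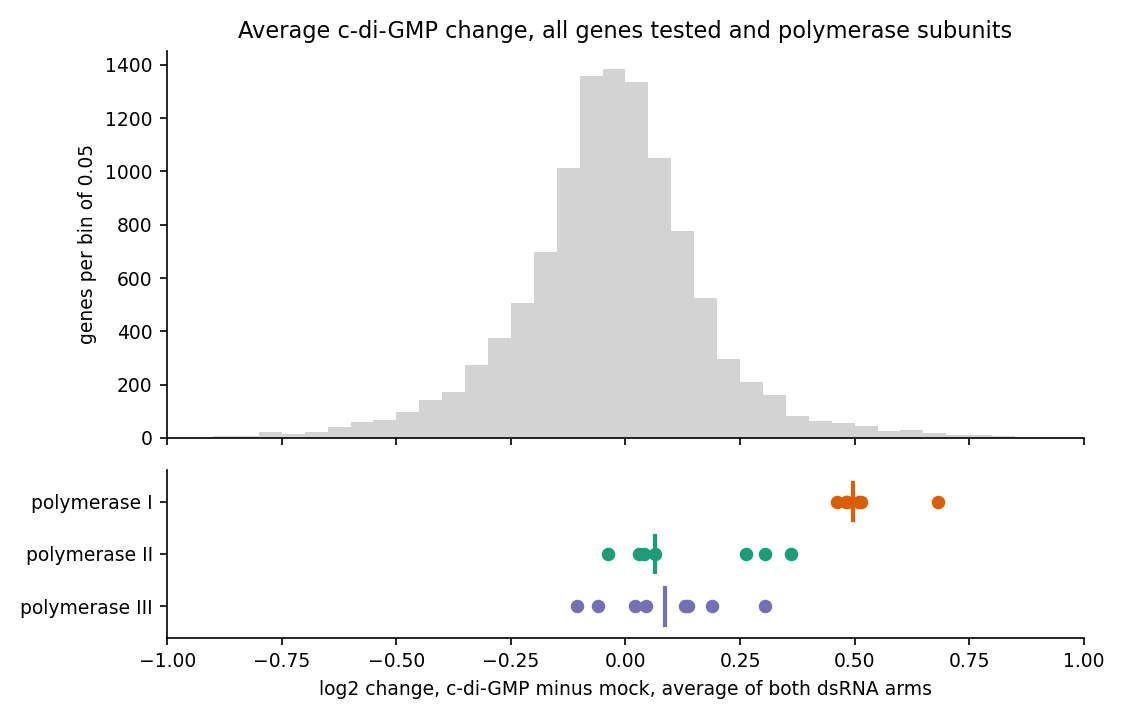
Upper panel, number of genes per bin of 0.05 in log2 change with c-di-GMP, averaged over both dsRNA arms, for all 11009 genes (38 genes beyond 1 in either direction are not drawn). Lower panel, the same change for each subunit, with a vertical bar at the median of each polymerase. The polymerase I subunits lie between 0.46 and 0.68, to the right of every polymerase II and III subunit.

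Of the 4 subunits shared by all 3 polymerases, 3 rose on average, with a median of 0.28, whereas 0 of the 3 particular to polymerase II rose or fell (limma, and 0 at an unadjusted p under 0.05), with a median of 0.04. The difference between these sets was not tested. The shared subunits that rose are small parts of the common core. Polr2K, homologue of yeast Rpb12, was at -0.22 and -0.11, then 0.18 and 0.24 in the scrambled arm, and at -0.14 and -0.16, then 0.11 and 0.29 in the DmSTING RNAi arm. All 4 treated samples were above all 4 mock samples, and it rose by 0.36 (SE 0.06, adjusted p = 0.00535).

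Polr2E, homologue of Rpb5, was at -0.18 and -0.17, then 0.20 and 0.07 in the scrambled arm, and at -0.12 and -0.07, then 0.23 and 0.19 in the DmSTING RNAi arm. It rose by 0.31 (SE 0.05, adjusted p = 0.00607), again with no overlap. Polr2L, homologue of Rpb10, was at -0.09 and -0.07, then 0.07 and 0.19 in the scrambled arm, and at -0.12 and -0.11, then 0.12 and 0.28 in the DmSTING RNAi arm. It rose by 0.26 (SE 0.06, adjusted p = 0.0176), but this call was lost without any 1 of 5 libraries, namely each of the 4 mock samples and replicate 2 of the c-di-GMP samples given DmSTING dsRNA (adjusted p from 0.0510 to 0.0746).

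Polr2H, homologue of Rpb8, is also shared by all 3 enzymes and did not follow the others. Its scrambled samples were at -0.13 and -0.02 under mock and -0.12 and -0.11 under c-di-GMP, and its DmSTING RNAi samples at 0.02 and 0.06, then 0.15 and 0.13. Treated and mock samples overlapped in the scrambled arm, and the average change was 0.03 (95% interval -0.08 to 0.14, adjusted p = 0.714).

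The subunits particular to polymerase II were Polr2G, part of the stalk, Polr2J, part of the assembly platform, and Polr2M, the associated protein Gdown1, which in human cells restrains the polymerase until Mediator acts. Their average changes were 0.04 for Polr2G (95% interval -0.09 to 0.17), -0.04 for Polr2J (-0.19 to 0.11) and 0.06 for Polr2M (-0.07 to 0.20). Treated and mock samples overlapped for each of them. For all 3 genes the interval ended below the lowest polymerase I change, 0.46 for Polr1E (95% interval 0.35 to 0.57). The widest polymerase I interval, that of Polr1F, began at 0.28. The difference between these genes and polymerase I was not tested.

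Of the polymerase III subunits 2 rose on average, Polr3A and Polr3D, where 7.65% of all genes rose. Neither passed the threshold in either arm alone. Polr3A changed by 0.29 in the scrambled arm and 0.32 in the DmSTING RNAi arm, and Polr3D by 0.08 and 0.29. Polr3A, the largest catalytic subunit, was at -0.11 and -0.25, then 0.05 and 0.17 in the scrambled arm, and at -0.06 and -0.05, then 0.26 and 0.28 in the DmSTING RNAi arm. The treated samples lay above the mock samples by 0.09, and it rose by 0.30 (SE 0.06, adjusted p = 0.00858). Polr3D, which in yeast forms with its partner a dimer that acts in initiation and termination, was at 0.00 and -0.12, then 0.00 and 0.04 in the scrambled arm, and at -0.12 and -0.08, then 0.16 and 0.23 in the DmSTING RNAi arm. Its groups touched within 0.01, and its rise of 0.19 (SE 0.05, adjusted p = 0.0361) was lost without any library other than scrambled mock replicate 1 (adjusted p from 0.0524 to 0.138).

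The other 6 polymerase III subunits did not pass the threshold in any c-di-GMP comparison. At an unadjusted p under 0.05 on average were 4 of the 8 (Polr3A, Polr3D, Polr3B and Polr3G, by limma), where 3679 of 11009 genes were. Polr3B, the second largest subunit, was at 0.13 on average (95% interval 0.004 to 0.25, adjusted p = 0.138). Polr3E, the partner of Polr3D, was at 0.04 (-0.11 to 0.20). The members of the trimer that opens promoters in yeast did not move together, with Polr3G at 0.14 (95% interval 0.008 to 0.27), Polr3C at -0.06 and Polr3F at -0.11. Polr3I, a stalk subunit, was at 0.02. Polr3F was the 1 subunit of the 21 whose 4 c-di-GMP samples all lay below its 4 mock samples, where 15.4% of all genes did so, and its adjusted p was 0.181. In the upward direction 12 of 21 subunits were separated in this way, 6 of polymerase I and 3 each of polymerases II and III, against 9.71% of all genes.

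Counterpart subunits of different polymerases were set side by side for 3 pairs, chosen after the data were seen, so their differences are given as a description with no test. Per sample, the value of 1 subunit was subtracted from that of its counterpart.

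The average log2 change of Polr1A was 0.51 and that of Polr3A, its counterpart in polymerase III, was 0.30. The difference Polr1A minus Polr3A lay between -0.23 and -0.01 in the 4 mock samples and between 0.03 and 0.19 in the 4 c-di-GMP samples. The second largest subunits had changes of 0.48 (Polr1B) and 0.13 (Polr3B), and the stalk subunits of 0.48 (Polr1F) and 0.04 (Polr2G of polymerase II). In both of these pairs the difference was also higher in all c-di-GMP samples than in any mock sample. Among subunits of the initiation dimers, Polr1E was at 0.46, Polr3D at 0.19 and Polr3E at 0.04. Differences between probe sets also depend on how each probe set responds to its target, which these values do not show.

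**Figure D3:**
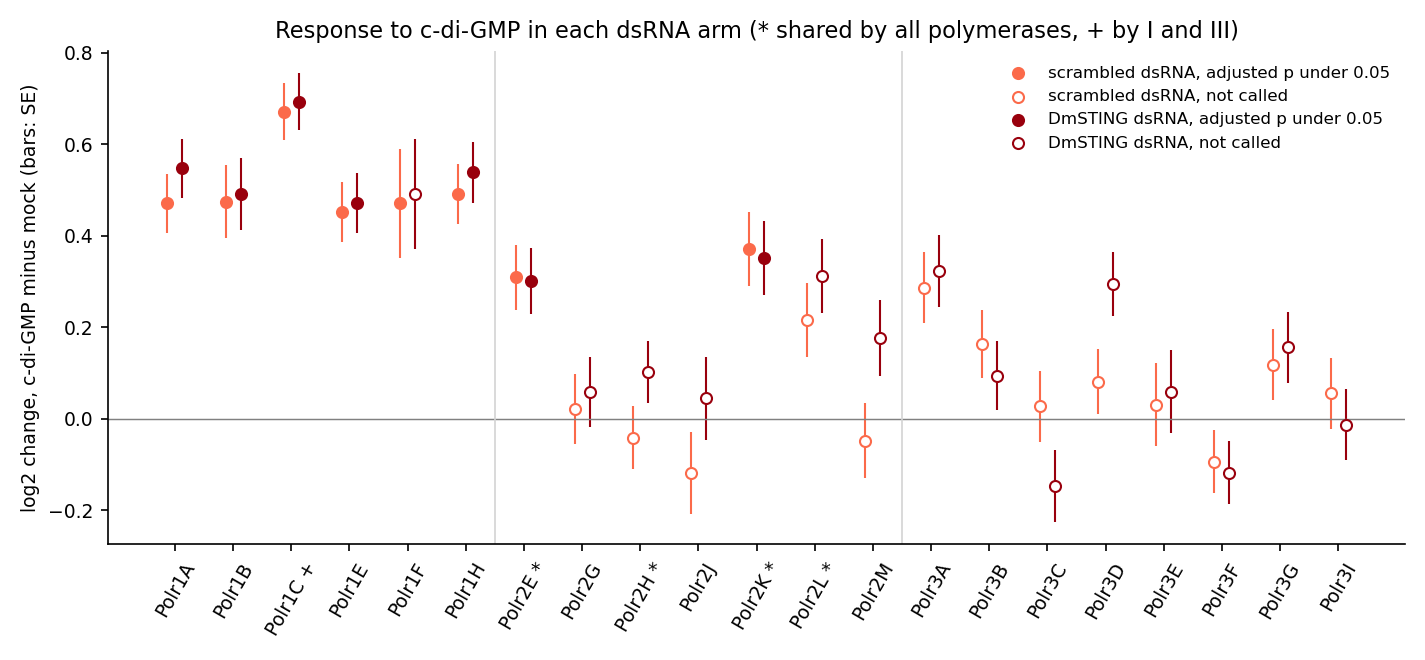
Log2 change with c-di-GMP (c-di-GMP minus mock) of each subunit in the scrambled arm (light red) and in the DmSTING RNAi arm (dark red), with bars for the SE, filled where the adjusted p was under 0.05. Changes in both arms lie between 0.45 and 0.69 for the polymerase I subunits, and Polr1F is filled in the scrambled arm alone.

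In cells given scrambled dsRNA, 8 of 21 subunits rose with c-di-GMP and none fell, where 4.14% of all genes rose and 7.93% fell. They were the 6 of polymerase I, with log2 changes from 0.45 for Polr1E to 0.67 for Polr1C, and the shared subunits Polr2E at 0.31 and Polr2K at 0.37. Medians were 0.47, 0.02 and 0.07 for polymerases I, II and III, and -0.04 over all genes. The count of 8 was lower whichever single library was left out, and so was the number of all genes called higher. The DmSTING RNAi libraries enter this comparison only through the estimate of spread. When only the 4 libraries compared were fitted, the count was 1, Polr1C. The log2 changes of the polymerase I subunits stayed between 0.34 and 0.68 whichever library was left out.

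In cells given DmSTING dsRNA, 7 of 21 subunits rose and none fell, where 3.27% of all genes rose and 4.17% fell. These were Polr1C at 0.69, Polr1A at 0.55, Polr1H at 0.54, Polr1B at 0.49, Polr1E at 0.47, Polr2K at 0.35 and Polr2E at 0.30. Polr1F was at 0.49 with an adjusted p of 0.0537, Polr3D at 0.29 with 0.0506, Polr3A at 0.32 with 0.0523 and Polr2L at 0.31 with 0.0657, by limma. Medians were 0.52, 0.18 and 0.08 for polymerases I, II and III, and -0.02 over all genes. Without any 1 of the 4 libraries of this arm the count was lower, and so was the number of all genes called higher. It was 11 after quantile normalization, which added those 4 subunits. There 563 of 11009 genes rose, against 360 in the fit reported. The log2 changes of the polymerase I subunits stayed between 0.35 and 0.72 whichever library was left out. Called in both arms were 7 of 21 subunits, where 2.53% of all genes rose in both.

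The c-di-GMP responses of the arms, which have their own mock samples, were not separated by the test of their difference. By limma's interaction contrast 0 of 21 subunits differed (0 at an unadjusted p under 0.05), as did 0 of 11009 genes, or 0% (540 at an unadjusted p under 0.05). The difference, DmSTING RNAi minus scrambled, had a median of 0.02 for polymerase I, 0.10 for polymerase II and 0.00 for polymerase III. For the polymerase I subunits it lay between 0.02 and 0.08, with 95% intervals from -0.14 to 0.29 for Polr1A and, at the widest, from -0.38 to 0.42 for Polr1F. The largest differences were those of Polr2M at 0.22 (95% interval -0.05 to 0.50) and Polr3D at 0.21 (-0.02 to 0.45), both with an adjusted p of 0.988.

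DmSTING dsRNA by itself moved no subunit past the threshold. Under mock, 0 of 21 differed from the scrambled arm by limma (0 at an unadjusted p under 0.05), and 0% of all genes rose and 0.00908%, which is Sting alone, fell. Under c-di-GMP 0 of 21 differed again, with the same shares of all genes, and 4 had an unadjusted p under 0.05, where 1511 of 11009 genes did. All 4 were higher in DmSTING RNAi: Polr2H by 0.25 (adjusted p = 0.286), Polr3E by 0.23 and Polr2J by 0.23 (both adjusted p = 0.340) and Polr3D by 0.17 (adjusted p = 0.351). For Polr2H both DmSTING RNAi c-di-GMP samples, at 0.15 and 0.13, lay above both scrambled c-di-GMP samples, at -0.12 and -0.11. Averaged over both treatments 0 of 21 were called and 5 had an unadjusted p under 0.05, where 1380 of 11009 genes did. The 5 were Polr1C, Polr2H, Polr3A, Polr3B and Polr3E, with log2 differences from 0.12 to 0.22.

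Proteins that work with the polymerases were measured in 8 lists, described for the average c-di-GMP effect, in which 7.65% of all genes rose and 13.3% fell. Of 4 measured genes listed as polymerase I factors 3 rose, with a list median of 0.35. The other, TAF1B, named after its value was seen, was at -0.05 (limma, adjusted p = 0.594, with no alternative run). Nopp140, a nucleolar phosphoprotein that helps ribosomal RNA and small nucleolar RNP maturation, rose by 0.47 (SE 0.05, adjusted p = 0.00100). Top1, the DNA topoisomerase that relaxes transcribed DNA, rose by 0.45, and Tif-IA, the homologue of Rrn3 that recruits polymerase I to its promoter, by 0.25 (adjusted p = 0.00976, and 0.0560 without DmSTING RNAi mock replicate 2).

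Of 7 genes listed as polymerase III factors 3 rose and 1 fell, with a median of 0.14. La, which binds the ends of new polymerase III transcripts, rose by 0.48 (SE 0.06, adjusted p = 0.00255), Bdp1, a part of the initiation factor TFIIIB, by 0.40, and Trf, the TBP-related protein of that factor in flies, by 0.31. Pbp45, of the complex that binds the promoters of small nuclear RNA genes, fell by 0.46 (SE 0.05, adjusted p = 0.00141). Maf1, a repressor of polymerase III, was at 0.03.

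The general factors assemble polymerase II at promoters. Of 17 measured, 0 rose or fell by limma (4 at an unadjusted p under 0.05, where 3679 of 11009 genes were; median 0.00), with TfIIEalpha at 0.15 and TfIIEbeta at -0.16 of smallest p (adjusted p = 0.101 and 0.0578). TfIIEbeta was called without scrambled c-di-GMP replicate 1, at -0.19 (adjusted p = 0.0435). Of 12 TBP-associated factors 1 rose and 1 fell (median 0.04), Taf4 at 0.28 (adjusted p = 0.0122) and Taf6 at -0.24 (adjusted p = 0.0395). The call of Taf4 was lost without DmSTING RNAi mock replicate 2 (adjusted p = 0.0638), and that of Taf6 without any 1 of 6 libraries (adjusted p from 0.0669 to 0.137), these being all but scrambled c-di-GMP replicate 2 and DmSTING RNAi c-di-GMP replicate 2.

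Of 19 elongation and pausing factors 3 rose and 2 fell (median -0.03). EloA, a subunit of elongin, rose by 0.49 (SE 0.05, adjusted p = 0.00100), Ssrp, of the histone chaperone FACT, by 0.30, and CycT by 0.36 (adjusted p = 0.0152, and 0.0691 without DmSTING RNAi mock replicate 2). By arm, CycT was at 0.57 with scrambled dsRNA (limma, adjusted p = 0.0188) and at 0.16 with DmSTING dsRNA (adjusted p = 0.475). The interaction contrast called 0 of 11009 genes, so the arms were not separated for CycT. Cdk9, the kinase that pairs with CycT to release paused polymerase II, fell by 0.33 on average (adjusted p = 0.00645). Hexim, which holds that pair inactive and is named after its value was seen, fell by 0.29 on average (adjusted p = 0.0169, with no alternative run).

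Of 8 genes listed as kinases and phosphatases of the polymerase II tail or as assembly factors, Cdk12 rose by 0.33 (adjusted p = 0.0301) and the tail phosphatase Fcp1 fell by 0.29 (adjusted p = 0.00587), with a median of -0.02. The call of Cdk12 was lost without any 1 of 6 libraries (adjusted p from 0.0539 to 0.115), these being all but scrambled mock replicate 1 and scrambled c-di-GMP replicate 2. Of 6 genes of mitochondrial transcription, which uses its own polymerase, mtTFB2 fell by 0.21 (adjusted p = 0.0459; median of the list -0.04). That call was lost without any library other than scrambled mock replicate 1 (adjusted p from 0.0699 to 0.153), after quantile normalization (adjusted p = 0.0518), with columns centred on their medians (0.0534) and with the replicate number as a block (0.06). Of 5 measured growth regulators that act on polymerases I and III, 0 rose or fell by limma (0 at an unadjusted p under 0.05), S6k being at -0.03 and Maf1 at 0.03. The list also held Myc, Tor and Thor, for which no gene was tested under these symbols.

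**Figure D4:**
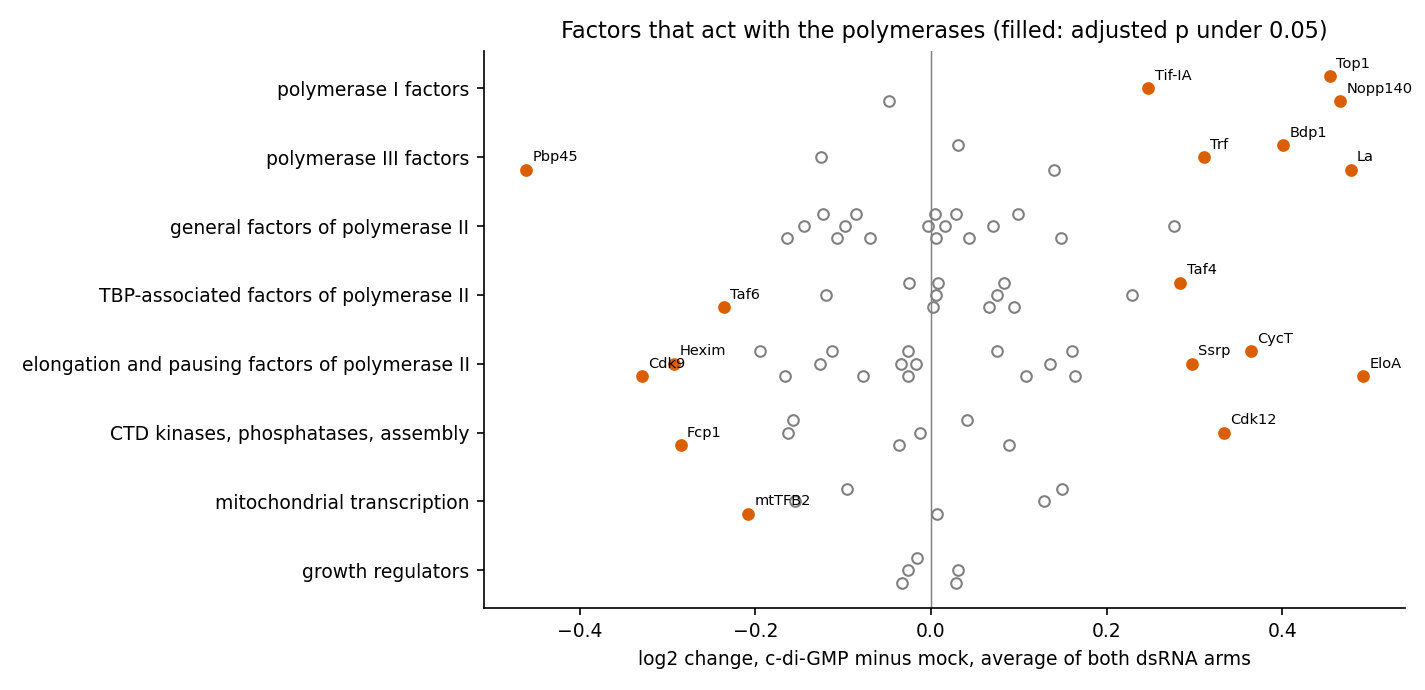
Log2 change with c-di-GMP, averaged over both dsRNA arms, of each measured gene in 8 lists of factors that act with the polymerases. Filled and named points passed an adjusted p of 0.05. The 17 general factors of polymerase II hold none. Of the 4 genes listed as polymerase I factors, 3 lie between 0.25 and 0.47.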

How the data were processed

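RNA of 8 samples was biotin-labelled for Affymetrix arrays with a 3' IVT kit, as the labels' protocols state. The table deposited by the authors holds log2 values of 16718 probe sets, each within 1e-06 of 0 in its median over the samples. How probe sets were summarized and scaled was not given in the sources used here, and the base of the logarithm was taken as 2. Of the probe sets 12339 name 1 gene, and those of a gene were averaged. The 11009 genes were fitted with limma 3.58.1 in R 4.3.3 (lmFit, eBayes) as 4 group means over all 8 samples on 4 residual degrees of freedom, with Benjamini-Hochberg adjustment over all of them. Intervals come from the same fit. No source calls the replicates separate cultures, so the p-values rest on a spread between samples that may be technical alone. The number of arrays limits the precision. The fit was tested on simulated data. Members and lists were chosen with earlier results of these data known. All members are named, with Sting and, from each list, up to 4 genes called in the average c-di-GMP effect or the 2 of smallest p. TAF1B and Hexim are given outside this rule. Alternatives were quantile normalization, median-centred columns, separate probe sets, a robust spread, only the groups compared, a replicate block and leaving out each sample.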

Additional observations from a re-analysis of the deposited data

How the results depend on the processing

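On the average c-di-GMP effect, between 9 and 11 of the 21 subunits rose under every alternative tried, and the 6 of polymerase I were among them each time. Over 21 subunits the count in the scrambled arm (8) was 1 with only the groups compared and between 1 and 7 when a sample was left out, where medians lay from 0.45 to 0.52, -0.020 to 0.077 and 0.052 to 0.12 for polymerases I, II and III. In the DmSTING RNAi arm (7) it was 11 after quantile normalization, with medians of 0.60 for polymerase I and 0.22 for polymerase II, and between 0 and 9 when a sample was left out, with medians from 0.50 to 0.56, 0.14 to 0.23 and 0.035 to 0.089. The difference of the responses had medians of 0.10 and -0.045 for polymerases I and III after quantile normalization, and from 0.0090 to 0.057, 0.069 to 0.15 and -0.066 to 0.013 when a sample was left out. For DmSTING RNAi against scrambled, leaving out a sample gave medians under mock from 0.011 to 0.083 for polymerase II and 0.045 to 0.10 for polymerase III, and under c-di-GMP from 0.02 to 0.10 for polymerase I and 0.065 to 0.13 for polymerase III, and quantile normalization gave 0.11 for polymerase I. The average c-di-GMP median was 0.53 for polymerase I after quantile normalization, and from 0.027 to 0.11 for polymerase II and 0.055 to 0.12 for polymerase III without a sample. Over all genes, quantile normalization gave 563 higher and 731 lower in the DmSTING RNAi arm (360 and 459 in the fit reported) and 393 and 511 in the scrambled arm (456 and 873); leaving out a sample gave as few as 0 and 0, and 85 and 136, in these arms, and 422 and 739 on average (842 and 1461). The cause of these shifts was not tested; a fit with fewer samples has fewer degrees of freedom. With the replicate number as a block, 8, 7 and 11 subunits rose in the scrambled arm, the DmSTING RNAi arm and on average; in the DmSTING RNAi arm Polr1F was called (adjusted p = 0.0236) and Polr2E was not (0.0628). The deviations of same-numbered samples correlated between 0.00926 and 0.289, so the numbers were not taken as pairs. Filters on dim probes and background correction need signals that centred values do not hold and were not run.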
